A study of Mus musculus with 12 samples.

Results

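The respiratory chain of the inner mitochondrial membrane was described here through the nuclear genes of its complexes I to IV, which were 65 of the 18820 genes with a value. The genes were taken by symbol from the array's platform annotation. Complex I was made up of genes starting with Ndufa, Ndufb, Ndufc, Ndufs or Ndufv without the Ndufaf assembly factors (36 genes), complex II of Sdha, Sdhb, Sdhc and Sdhd (4 genes), complex III of genes starting with Uqcr and of Cyc1 (8 genes), and complex IV of genes starting with Cox4i, Cox5, Cox6, Cox7 or Cox8 (17 genes). The symbol alone decided, so Cox7a2l was counted with complex IV and Ndufa4 with complex I. Ndufa4 was named as a complex I gene, but its protein has since been assigned to complex IV. Probe sets that carry several symbols were left out, so Cox7c, Uqcrc2 and Ndufa13 had no value. Of the 65 genes, 62 lay above the 30th percentile of all genes' mean log2 values (4.12). The 5 genes below the median of all genes' means (5.13) were Ndufa4l2, Cox6b2, Cox7b2, Cox8b and Cox8c, all isoforms known from particular tissues or conditions.

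Complexes I and II pass electrons from NADH and succinate to ubiquinone, complex III passes them on to cytochrome c, and complex IV passes them to oxygen. Complexes I, III and IV pump protons, and the gradient drives the ATP synthase. A few core subunits, which are encoded in mitochondrial DNA, fall outside the rule above, and the nuclear genes include both catalytic subunits that carry the flavins, iron-sulfur clusters and haems and many small accessory subunits. In B cells and B lymphomas, MYC and signals of the B-cell receptor (BCR) are known to bear on mitochondrial mass and respiration.

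Expression was measured on 12 Affymetrix arrays of primary B lymphoma cells grown from λ-MYC;B1-8f mice of strain C57BL/6J x BALB/c. These mice carry a MYC transgene driven by elements of the immunoglobulin lambda locus and a B1-8 heavy chain variable region that Cre recombinase can remove. All cultures had been exposed to TAT-Cre, a cell-permeable Cre protein. The BCR-positive controls had thus met Cre as well and were the cells of each culture that still had their receptor. Cells of 3 independent lymphomas (2564, 2646 and 2676) were kept for 4 days as mixed cultures without or with CHIR99021, which blocks the kinase GSK3, and were sorted afterwards into BCR-positive and BCR-negative cells. Each lymphoma gave 1 array to each of the 4 groups, untreated BCR-positive, untreated BCR-negative, CHIR99021-treated BCR-positive and CHIR99021-treated BCR-negative cells, so n was 3 per group. The cells were sorted at a time when the BCR-negative ones were already being outcompeted in the mixed cultures. The labels give neither the age nor the sex of the mice nor the CHIR99021 dose.

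Array medians averaged 4.88 ± 0.054 (SD, n = 3) for untreated BCR-negative cells, 4.82 ± 0.028 for their BCR-positive partners, and 4.82 ± 0.041 and 4.77 ± 0.063 in the BCR-negative and BCR-positive cells with CHIR99021. Ighv1-72, the variable segment of the B1-8 chain, was lower in the BCR-negative cells of every lymphoma, with log2 differences of -1.39 to -3.28 without CHIR99021 and of -2.46 to -3.66 with it. Signal remained in the BCR-negative cells of lymphomas 2564, 2646 and 2676. It was 8.60, 9.12 and 7.10 without CHIR99021 and lower, at 7.26, 8.17 and 6.56, with it. The B-cell genes Cd79a, Cd79b, Pax5, Ebf1 and Cd22 were bright on all arrays, Blk ranged from 4.63 to 8.65, and Ms4a1 was dim (mean 3.24). All 6 T-cell, 4 NK-cell and 2 erythroid markers measured lay below the median of all genes' means, as did 5 of 7 myeloid and 1 of 5 stromal and endothelial markers. The mean of the 5 plasma cell markers ranged from 6.93 to 7.22 in untreated BCR-positive and from 7.08 to 7.80 in untreated BCR-negative arrays. Of these, Prdm1 was called higher in untreated BCR-negative cells (1.62 on the log2 scale; limma, adjusted p = 0.0248), while Sdc1, Xbp1, Irf4 and Jchain were not called. Jchain lay near the lower end of the array's range (mean 3.66). The part of these markers in the results below was not tested.

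The stretches upstream of 4 of the 5 subunit genes that were called in the first comparison below are shown as examples with and without the short motifs that were searched. They are the 250 bases before the RefSeq transcription start (build GRCm38.p6), read 5′ to 3′ along the gene. Capitals mark matches to the motifs that were searched. In Ndufb6 (chr4:40279422-40279671, minus strand) these were CTTCCGG, the other strand of the ETS-family motif CCGGAAG to which GABP (NRF-2) binds, and TGCGCA, a part of the NRF-1 motif. In Cox5b (chr1:36691237-36691486, plus strand) it was TGCGCA, and in Ndufv1 (chr19:4012756-4013005, minus strand) the E-box CACGTG that MYC and other factors bind. Cox7a1 (chr7:30183921-30184170, plus strand) held none of the motifs, and neither did Ndufa4, the called gene that is not shown.
Ndufb6: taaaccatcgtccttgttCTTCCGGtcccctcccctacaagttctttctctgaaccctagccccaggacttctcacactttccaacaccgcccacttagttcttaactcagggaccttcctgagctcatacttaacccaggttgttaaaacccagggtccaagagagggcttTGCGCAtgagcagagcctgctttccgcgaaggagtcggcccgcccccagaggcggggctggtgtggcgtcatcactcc
Cox5b: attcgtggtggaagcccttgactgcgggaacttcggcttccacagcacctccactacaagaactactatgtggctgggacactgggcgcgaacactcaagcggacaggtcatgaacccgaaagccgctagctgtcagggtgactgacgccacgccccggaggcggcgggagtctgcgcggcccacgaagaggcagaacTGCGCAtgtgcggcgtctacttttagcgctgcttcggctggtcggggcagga
Ndufv1: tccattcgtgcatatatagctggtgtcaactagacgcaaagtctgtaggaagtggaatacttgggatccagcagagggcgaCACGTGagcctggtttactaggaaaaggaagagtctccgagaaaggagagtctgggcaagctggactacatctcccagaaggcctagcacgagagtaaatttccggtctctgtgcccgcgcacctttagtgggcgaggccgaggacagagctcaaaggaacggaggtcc
Cox7a1: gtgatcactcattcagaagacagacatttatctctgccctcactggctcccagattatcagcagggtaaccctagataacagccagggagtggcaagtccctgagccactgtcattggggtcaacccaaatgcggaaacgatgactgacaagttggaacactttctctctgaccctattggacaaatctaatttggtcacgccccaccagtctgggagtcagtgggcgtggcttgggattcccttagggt

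Promoter windows of 300 bases (250 before and 50 after the start) were at hand for 52 of the 65 subunit genes and were set beside those of 27025 genes in all, with both strands searched. The NRF-1 motif, GCGCA followed by any base and GCGC, lay in windows of 11 subunit genes (21.2%, against 5.19% of all genes), among them Sdha, Sdhd, Uqcrc1 and Ndufs6. CCGGAAG also lay in 11 (21.2%, against 9.93%), among them Sdhb, Uqcr11 and Cox6b1, and the YY1 motif AAGATGGCG in 5 (9.62%, against 1.64%). CACGTG lay in 2 (3.85%, against 8.09%), Ndufv1 and Ndufa7. The shorter NRF-1 site TGCGCA, which overlaps the NRF-1 motif and was added after the windows had been seen, lay in 15 (28.8%, against 8.79%). A match describes the letters in the window and shows neither a bound site nor a cause. The motifs can overlap one another, and member genes were compared with all genes without matching for base composition.

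The first comparison asked what the loss of the BCR does to these genes in untreated cultures. Most subunit genes had slightly lower values in the BCR-negative cells than in their BCR-positive partners from the same culture. The median difference over the 65 genes was -0.17 on the log2 scale, 11.4% lower, against -0.00 over all genes, and it was -0.15, -0.19 and -0.14 in lymphomas 2564, 2646 and 2676. The estimate lay below 0 for 59 of 65 genes (51.0% of all genes) and was below 0 in all 3 lymphomas for 47 (21.8% of all genes). The 3 BCR-negative values lay wholly below the 3 BCR-positive values for 20 subunit genes (5.72% of all genes). Here and below, all genes were not matched to the subunit genes for level, and only 5 of the 65 lay below the median of all genes' means. With dim genes left out, the median difference over all genes was -0.01.

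With limma and Benjamini-Hochberg adjustment over all genes, 5 of the 65 genes fell and none rose. Of all genes, 2.30% were called lower and 1.91% higher. At an unadjusted p under 0.05, 33 of 65 were lower (50.8%, against 12.2% of all genes). Scaling moved the split of calls over all genes, from 359 higher and 432 lower as deposited to 288 and 1013 with array medians subtracted and to 389 and 261 with cyclic loess. In these bulk RNA samples, fewer cells that express a gene and less of its RNA per cell cannot be told apart.

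The largest fall was that of Cox7a1, the isoform of complex IV subunit VIIa known from heart and skeletal muscle. Its log2 values were 7.58, 7.18 and 7.33 in the untreated BCR-positive cells of lymphomas 2564, 2646 and 2676, and 6.96, 6.58 and 7.13 in the BCR-negative cells. Every BCR-negative value lay below every BCR-positive value, although the gap within lymphoma 2676 was only 0.19. The difference was -0.47 ± 0.0944 (SE; limma, adjusted p = 0.0312), a 1.39-fold lower level.

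Ndufb6, an accessory subunit in the membrane arm of complex I and the gene with both motif matches shown above, had values of 11.05, 10.84 and 10.89 with and 10.73, 10.29 and 10.68 without the receptor. The groups did not overlap, and lymphoma 2646 had the widest gap. Ndufb6 fell by 0.36 ± 0.0772 on the log2 scale (limma, adjusted p = 0.0354). Ndufv1, the subunit that takes up electrons from NADH through its flavin, fell by 0.37 ± 0.0859 (adjusted p = 0.0444). Its values were 9.86, 9.49 and 9.42 in BCR-positive and 9.51, 9.22 and 8.92 in BCR-negative cells. The groups overlapped because lymphoma 2564 was high in both, but the BCR-negative value was lower within each lymphoma.

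Ndufa4 fell by 0.39 ± 0.0929 (limma, adjusted p = 0.0482), from 9.55, 9.32 and 9.60 to 9.22, 8.67 and 9.40. Lymphoma 2646 again showed the widest gap, and the groups overlapped. Cox5b, a nuclear subunit of complex IV that binds zinc, fell by 0.22 ± 0.0523 (adjusted p = 0.0491), from 10.70, 10.52 and 10.54 to 10.41, 10.29 and 10.40, with no overlap. A further probe set of Cox5b gave a difference of -0.22 as well. These 5 calls lay close to the threshold. None was called without the lymphoma block, with lymphoma as a random block, or with only the arrays compared. Of all 18820 genes, 2, 27 and 0 were called lower in these settings. With the co-culture as a finer block Cox7a1 alone was called, and with cyclic loess Cox7a1 and Ndufb6. Of all genes, 267 and 261 were called lower there. No subunit gene was called without lymphoma 2646, without lymphoma 2676, or without the untreated BCR-positive array of either, the untreated BCR-negative or the treated BCR-positive array of 2646. In the order given, 0, 2, 10, 12, 24 and 207 of all genes were called lower in these fits. Without 1 of the other arrays 1 to 6 were called, except that 11 were called without the CHIR99021-treated BCR-negative array of lymphoma 2676. Without that array 583 of all genes were called lower, and 145 to 635 in the fits with 1 to 6.

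**Figure D1:**
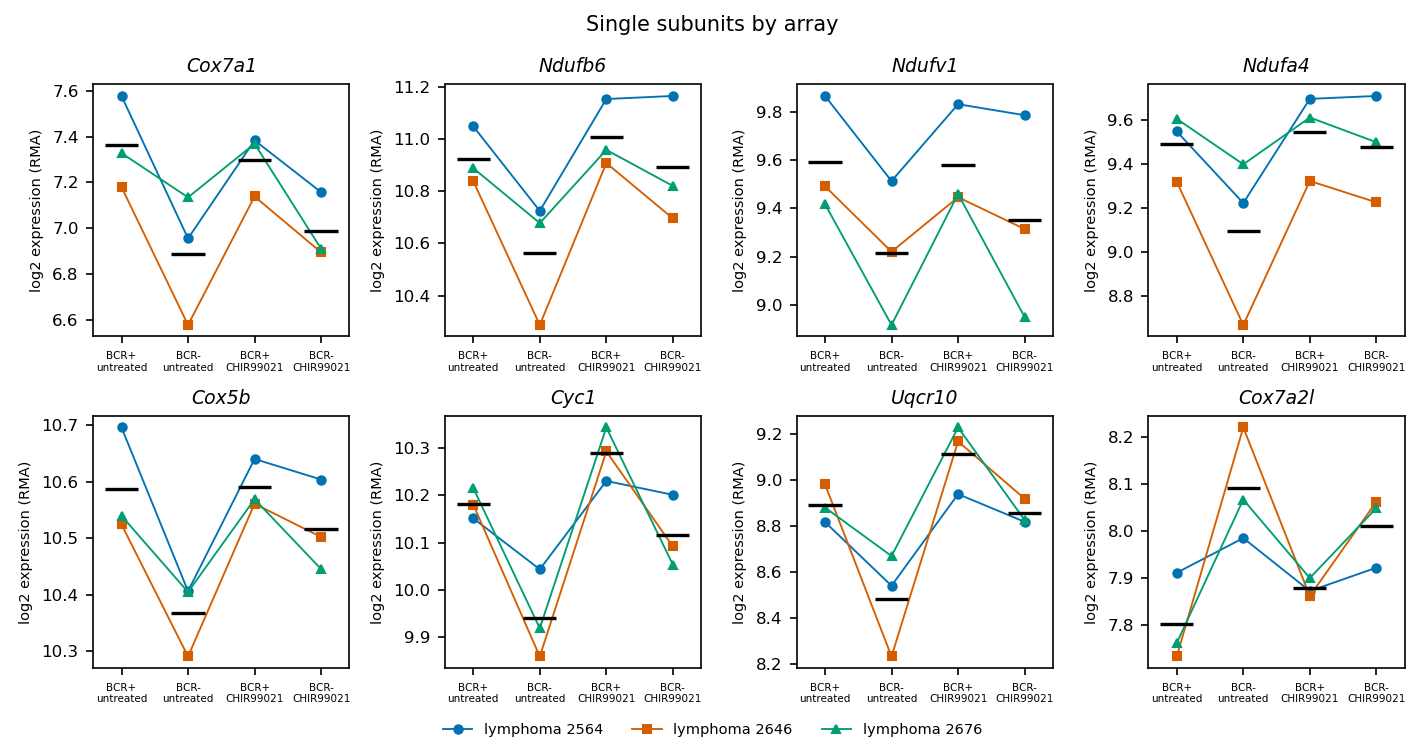
Log2 expression values (vertical axis, a scale of its own for each gene) of 8 subunit genes in the 4 groups (horizontal axis). Points of 1 colour and shape are the arrays of 1 lymphoma, joined by lines, and black bars are group means (n = 3). In untreated cultures the BCR-negative value lies below the BCR-positive one in each lymphoma for all genes shown but Cox7a2l, where it lies above.

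Within complex I, 35 of 36 estimates lay below 0, 3 genes were called (Ndufb6, Ndufv1 and Ndufa4), and the median was -0.19. The 10 iron-sulfur and flavin fraction genes (Ndufs and Ndufv) had a median of -0.19, the 12 Ndufb and Ndufc genes of -0.18, and the 14 Ndufa genes of -0.19. Just past the threshold were Ndufs1, the largest iron-sulfur subunit, at -0.25 ± 0.0606 (limma, adjusted p = 0.0516) and Ndufa1, an accessory subunit needed for assembly of the complex, at -0.38 ± 0.0962 (adjusted p = 0.0554). Ndufs1 had BCR-positive values of 9.21, 9.19 and 9.26 and BCR-negative values of 9.12, 8.88 and 8.90, which did not overlap. Ndufa6 was the only complex I gene above 0 (0.12 ± 0.0737, adjusted p = 0.427), with -0.10 in lymphoma 2564 and 0.17 and 0.28 in the others. Without Ndufa4, the complex I median was -0.18.

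In complex II, all 4 estimates lay below 0 and none was called, with a median of -0.18. The iron-sulfur subunit Sdhb was at -0.36 ± 0.100 (limma, adjusted p = 0.0717), with BCR-positive values of 9.76, 9.89 and 9.85 against BCR-negative values of 9.52, 9.33 and 9.56. These did not overlap. The membrane anchors were at -0.19 (Sdhd) and -0.05 (Sdhc), and the flavoprotein Sdha at -0.16.

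Complex III had a median of -0.23 (14.9% lower), with 7 of 8 estimates below 0 and none called. Its medians in lymphomas 2564, 2646 and 2676 were -0.16, -0.28 and -0.19, the lowest of the 4 complexes in 2646 but not in the others. Uqcr10, a small accessory subunit, was at -0.41 ± 0.106 (limma, adjusted p = 0.0591), from 8.82, 8.98 and 8.88 to 8.54, 8.23 and 8.67. Cyc1, the cytochrome c1 that hands electrons to cytochrome c, was at -0.24 ± 0.0646 (adjusted p = 0.0640), from 10.15, 10.18 and 10.22 to 10.04, 9.86 and 9.92. For both genes each BCR-negative value lay below each BCR-positive one. The Rieske iron-sulfur protein Uqcrfs1 was at -0.22, and Uqcrh at 0.02.

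Complex IV estimates ran from -0.47 to 0.29. Their median was -0.08, 13 of 17 estimates lay below 0, and 2 genes fell, Cox7a1 and Cox5b. Those above 0 were Cox7a2l and the isoforms Cox6b2, Cox8b and Cox8c, which lay below the median of all genes' means. Cox7a2l stood at the other end of all 65 genes at 0.29 ± 0.0756 (limma, adjusted p = 0.0610). Its values were 7.91, 7.73 and 7.76 in BCR-positive and 7.98, 8.22 and 8.07 in BCR-negative cells, so the BCR-negative group lay wholly above. A further probe set of Cox7a2l gave 0.24. The landmark subunit Cox4i1 was at -0.08 ± 0.0854 (adjusted p = 0.703).

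Cox6a2, the striated muscle isoform of subunit VIa, was at -0.27 ± 0.243 and rested on lymphoma 2646, where the value was 7.56 with and 6.63 without the receptor. In lymphomas 2564 and 2676 its values were 5.87 against 6.05 and 6.23 against 6.18. Over the 8 tissue-restricted isoforms the median was -0.06, with Cox7a1 the only call. Over the 10 nuclear genes of the catalytic core it was -0.21, all 10 were below 0, and Ndufv1 was the only call. The differences between complexes and between these lists were not tested.

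**Figure D2:**
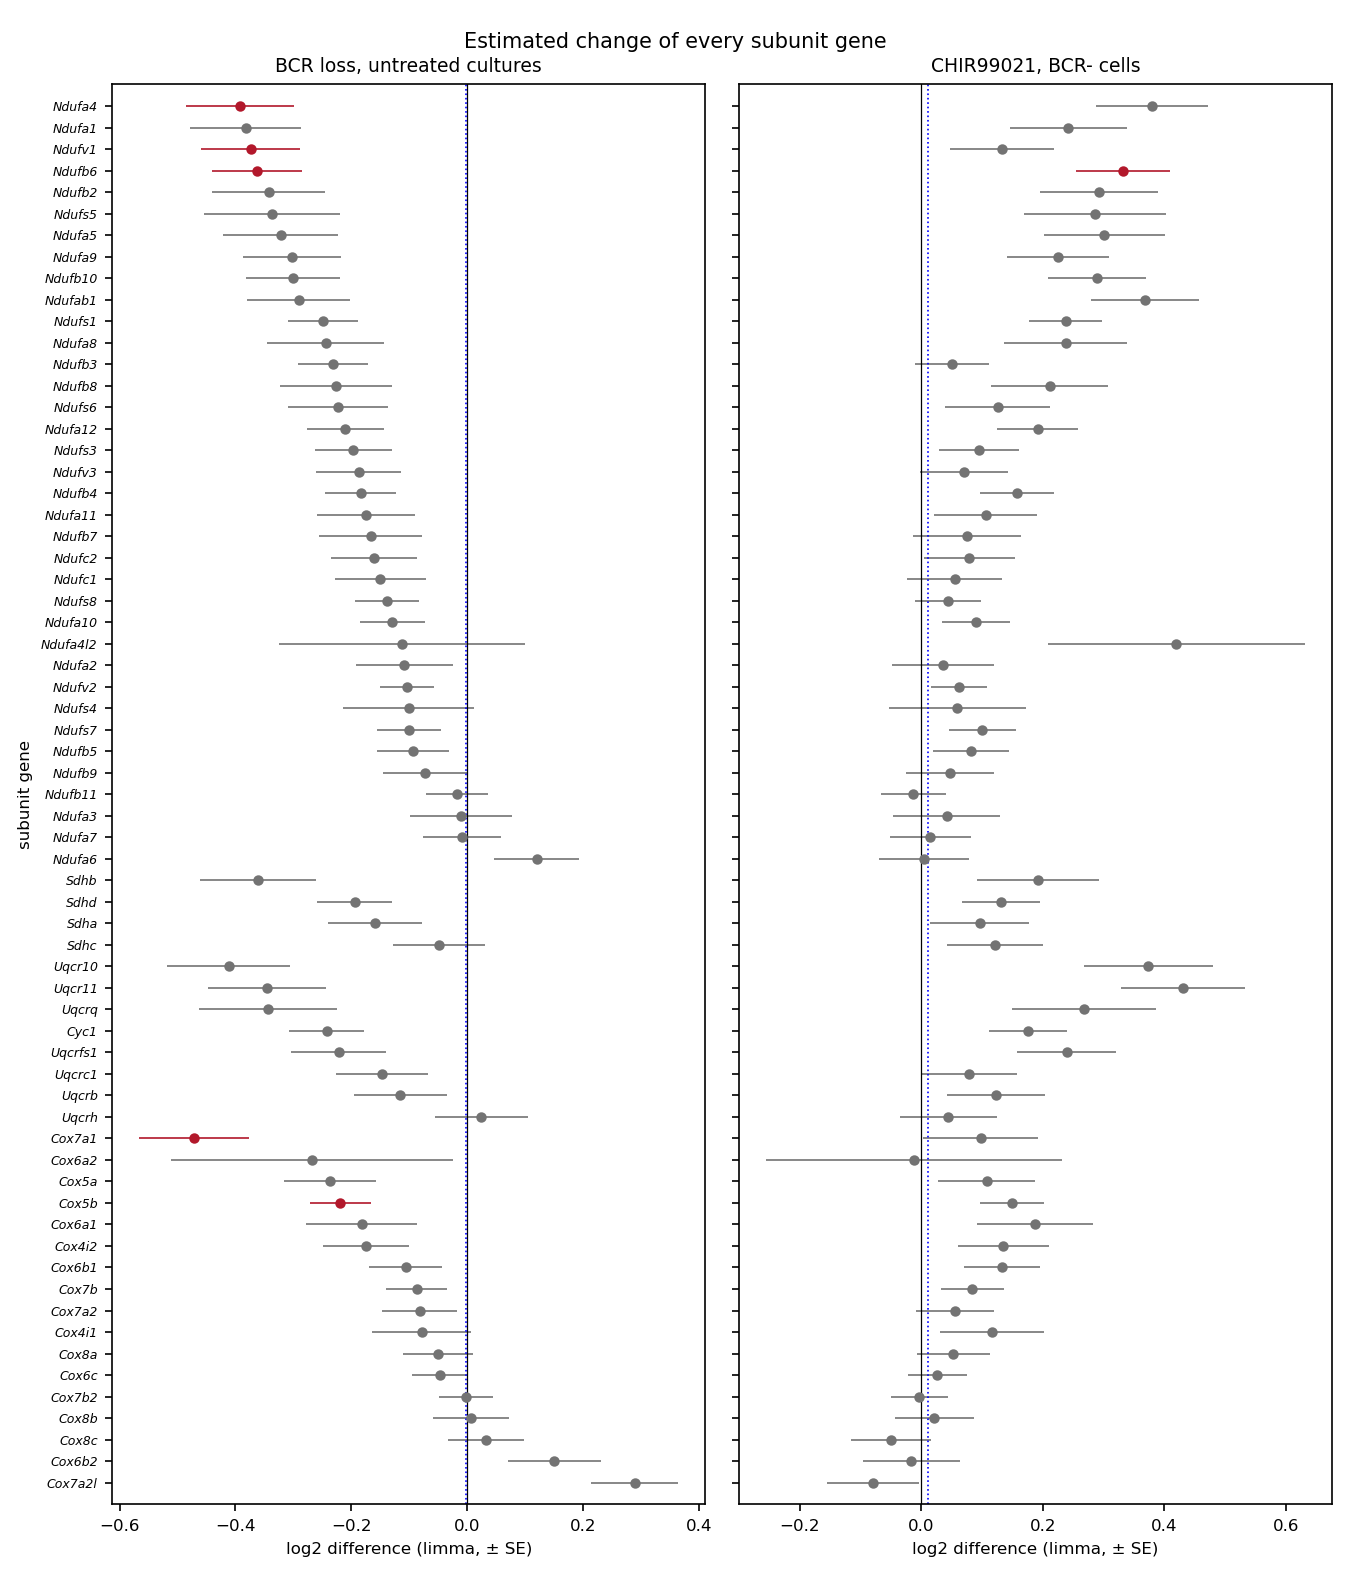
Estimated log2 difference (horizontal axis) of each of the 65 subunit genes (vertical axis, by complex and by the estimate in the left panel), with bars of 1 standard error from limma (n = 3 lymphomas). Red marks genes with an adjusted p under 0.05, the black line is 0 and the dotted blue line the median of all genes. After BCR loss 59 estimates lie to the left of 0 and 5 are red, and with CHIR99021 in BCR-negative cells 59 lie to the right and 1 is red.

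The second comparison asked for the same difference in cultures with CHIR99021. No subunit gene was called with limma, where 0.00531% of all genes were called lower. At an unadjusted p under 0.05, 10 of 65 were lower (3.78% of all genes). The estimate lay below 0 for 58 of 65 genes (47.7% of all genes), and in all 3 lymphomas for 28 (13.9% of all genes). The median was -0.09, but it differed between lymphomas at 0.00 in 2564, -0.09 in 2646 and -0.19 in 2676. Without lymphoma 2564 the median was -0.16 and without lymphoma 2676 it was -0.05.

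The smallest p was that of Cox7a1, at -0.31 ± 0.0944 (limma, adjusted p = 0.489). Its values were 7.38, 7.14 and 7.37 in BCR-positive and 7.16, 6.90 and 6.91 in BCR-negative cells, and the groups overlapped slightly. Ndufb3, an accessory subunit of the membrane arm, was at -0.16 with no overlap, and Cyc1 at -0.17 with no overlap. Ndufv1 was at -0.23, and most of that came from lymphoma 2676, with 9.46 against 8.95, while lymphoma 2564 had 9.83 against 9.79. The medians of complexes I, II, III and IV were -0.10, -0.09, -0.15 and -0.05.

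CHIR99021 in BCR-positive cells was the third comparison, and the subunit genes stood slightly higher with the inhibitor. None was called with limma, where 0.00531% of all genes were called higher. At an unadjusted p under 0.05 only Cox4i1 was higher (4.69% of all genes), at 0.20 ± 0.0854 (adjusted p = 0.486). This gene, the common isoform of complex IV subunit IV, had values of 10.16, 9.98 and 10.07 without and 10.37, 10.21 and 10.21 with CHIR99021, and the groups did not overlap. The estimate lay above 0 for 52 of 65 genes (51.2% of all genes), in all 3 lymphomas for 28 (18.7% of all genes), and the median was 0.05.

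All 8 complex III genes were above 0 in BCR-positive cells, with a median of 0.11. Uqcr10 was at 0.22 and Uqcr11 at 0.21, both small accessory subunits, and neither was called. Cyc1, at 0.11, had values with the inhibitor of 10.23, 10.29 and 10.34, all above the values without it. The medians of complexes I, II and IV were 0.05, 0.04 and 0.03. Ndufa4l2, a paralogue of Ndufa4 known to be induced in hypoxia, had the largest estimate of the 65 genes, 0.40 ± 0.212, and depended on lymphoma 2564. That lymphoma had 5.98 without and 6.80 with CHIR99021, while lymphomas 2646 and 2676 had 4.39 and 4.24 without and 4.42 and 4.60 with it.

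The fourth comparison asked what CHIR99021 does to the BCR-negative cells. It used the same untreated BCR-negative arrays as the first comparison, with the opposite sign. A fall in the first and a rise in the fourth are therefore not independent readings. Here most subunit genes had higher values with the inhibitor, by an amount that varied between the lymphomas; the difference between lymphomas was not tested. The estimate lay above 0 for 59 of 65 genes (54.2% of all genes) and the median was 0.11, 7.62% higher. Within lymphoma 2564 the median was 0.21, with 60 of 65 genes above 0, and within lymphoma 2646 it was 0.19, with 59 above 0. Within lymphoma 2676 it was -0.02, with 26 above 0. Accordingly 24 genes were above 0 in all 3 lymphomas (21.2% of all genes), and the median without lymphoma 2676 was 0.19, against 0.02 over all genes. The counts and medians within single lymphomas were not set beside those of all genes.

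Ndufb6 was the only subunit gene that rose, by 0.33 ± 0.0772 (limma, adjusted p = 0.0487). Of all genes, 1.91% were called higher, and at an unadjusted p under 0.05 it was 19 of 65 subunit genes against 11.4% of all genes. The Ndufb6 values were 10.73, 10.29 and 10.68 without and 11.17, 10.70 and 10.82 with CHIR99021. The groups overlapped, since lymphoma 2646 with CHIR99021 lay below lymphoma 2564 without it, but each lymphoma went up. No subunit gene was called when any 1 lymphoma was left out. Of all genes, 26, 0 and 63 were called higher without 2564, 2646 and 2676. Nor was a subunit gene called without the lymphoma block, with lymphoma as a random block, with only the arrays compared, or with cyclic loess. Of all genes, 1, 23, 1 and 237 were called higher in these settings. Without most of the single arrays no subunit gene was called either. Leaving out single arrays gave 9 to 471 of all genes called higher. Without the untreated BCR-negative array of lymphoma 2676, 3 subunit genes were called, and 229 of all genes were called higher. When the CHIR99021-treated BCR-negative array of lymphoma 2676 was left out, 10 subunit genes were called, and 471 of all genes were called higher. In the same comparison the B-cell gene Cd79b fell by 0.33 and the myeloid gene Lyz2, dim at a mean of 3.76, rose by 0.46. The mean of the 7 myeloid markers ranged from 4.16 to 4.82 without and from 4.21 to 4.80 with CHIR99021, and the part of these markers was not tested. The scaling moved the calls over all genes from 360 higher and 332 lower to 836 and 253 with array medians subtracted and to 237 and 354 with cyclic loess.

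Other genes came close to the threshold. Uqcr11 was at 0.43 ± 0.102 (limma, adjusted p = 0.0507), with 9.14, 8.89 and 9.54 without and 9.90, 9.32 and 9.65 with CHIR99021, again with the smallest gap in lymphoma 2676. Ndufab1, the mitochondrial acyl carrier protein, was at 0.37 ± 0.0890 (adjusted p = 0.0530), from 8.96, 8.65 and 8.75 to 9.35, 9.10 and 9.02. Its groups did not overlap, and unlike most subunit genes it was clearly higher in lymphoma 2676 too.

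Ndufa4 was at 0.38 ± 0.0929 (limma, adjusted p = 0.0548) and Ndufs1 at 0.24 ± 0.0606 (adjusted p = 0.0620). For Ndufs1 the values went from 9.12, 8.88 and 8.90 to 9.27, 9.16 and 9.19, and the groups did not overlap. Cox7a1, which had fallen most after BCR loss, was at 0.10 ± 0.0944 (adjusted p = 0.680), with 0.20, 0.32 and -0.22 in lymphomas 2564, 2646 and 2676. Ndufv1 was at 0.13 and Cox5b at 0.15, and neither was called.

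By complex, the medians with CHIR99021 in BCR-negative cells were 0.21 for complex III, where all 8 genes were above 0, 0.13 for complex II, 0.10 for complex I and 0.06 for complex IV. In lymphoma 2676 they were 0.09, -0.01, -0.03 and -0.05. The 10 catalytic core genes had medians of 0.15, 0.13 and 0.06 in lymphomas 2564, 2646 and 2676, and the 14 Ndufa genes 0.36, 0.21 and -0.04.

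**Figure D3:**
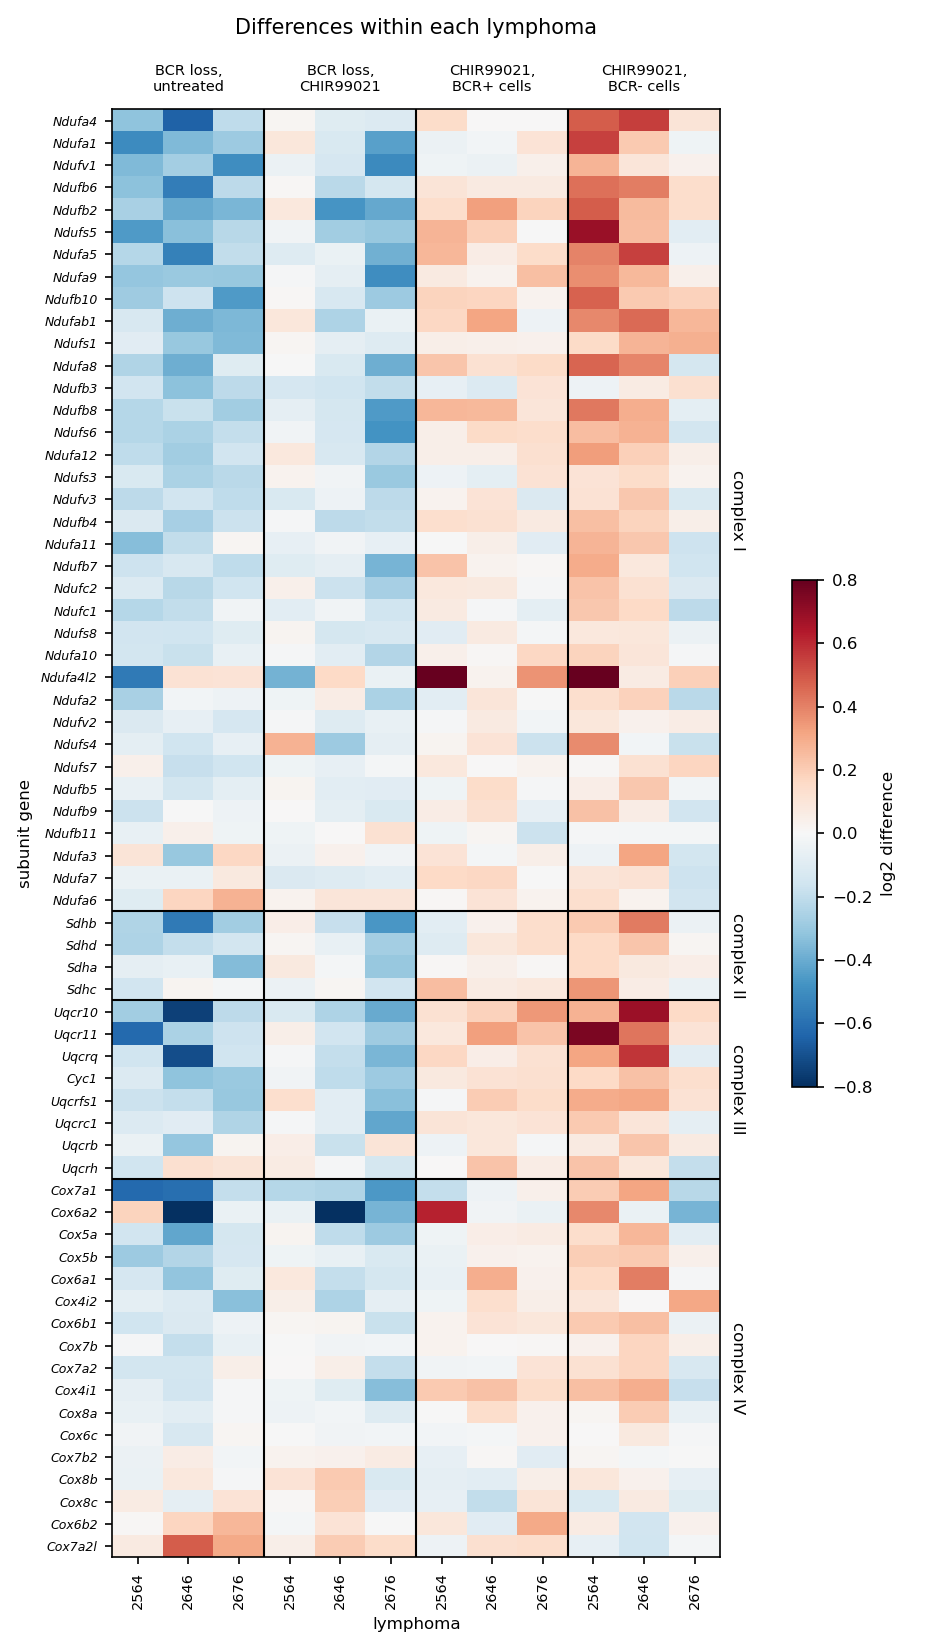
Log2 difference within each lymphoma (colour, from blue for lower to red for higher, cut at -0.8 and 0.8) for the 65 subunit genes (vertical axis, by complex) in 4 comparisons of 3 lymphomas each (horizontal axis). The block for BCR loss in untreated cultures is mostly blue in all 3 lymphomas, and the block for CHIR99021 in BCR-negative cells is mostly red in lymphomas 2564 and 2646, with 26 of 65 genes above 0 in lymphoma 2676.

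Set side by side, the mean level of the complex I genes (each gene minus its mean over the 12 arrays) was 0.12, 0.02 and -0.02 in untreated BCR-positive cells of lymphomas 2564, 2646 and 2676, and -0.08, -0.21 and -0.17 in untreated BCR-negative cells. With CHIR99021 it was 0.21, 0.10 and 0.02 in BCR-positive and 0.20, -0.01 and -0.19 in BCR-negative cells. The BCR-negative cells of lymphoma 2564 with CHIR99021 thus stood above their untreated BCR-positive partners, those of lymphoma 2646 slightly below theirs, and those of lymphoma 2676 at about the level without the inhibitor. For complex III the level was 0.16, 0.02 and -0.12 in CHIR99021-treated BCR-negative cells, against -0.13, -0.31 and -0.15 in untreated BCR-negative and 0.08, 0.00 and 0.01 in untreated BCR-positive cells.

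**Figure D4:**
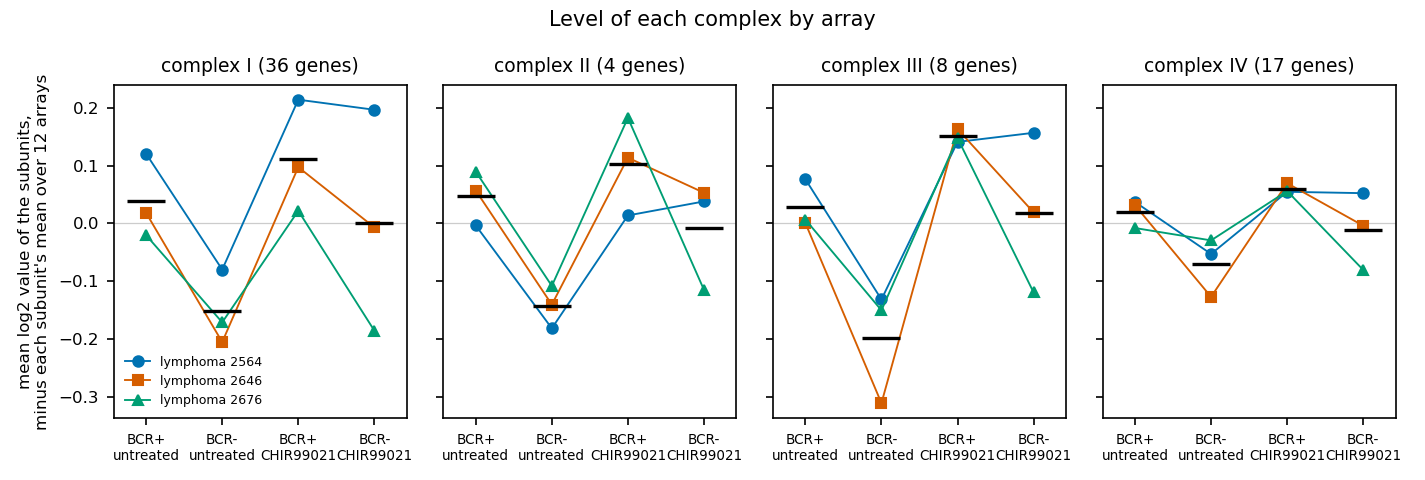
Mean log2 value of the subunit genes of each complex, each gene minus its mean over the 12 arrays (vertical axis), in the 4 groups (horizontal axis). Points of 1 colour and shape are the arrays of 1 lymphoma, joined by lines, and black bars are group means (n = 3). Untreated BCR-negative arrays lie below the untreated BCR-positive array of the same lymphoma in every complex, and CHIR99021-treated BCR-negative arrays are ordered 2564, 2646, 2676 from high to low in complexes I, III and IV.

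The fifth comparison was the interaction, which asks whether the effect of BCR loss differed between cultures with and without CHIR99021. No gene of the 18820 was called with limma in either direction. At an unadjusted p under 0.05, 3 subunit genes were higher (3.35% of all genes), Ndufa4 at 0.33 ± 0.131 (adjusted p = 0.928), Ndufb6 at 0.25 and Ndufs1 at 0.19. The estimate lay above 0 for 53 of 65 genes (54.0% of all genes), with a median of 0.06 and within-lymphoma medians of 0.15, 0.11 and -0.11. With replicates left out this median ranged from 0.03, without lymphoma 2564, to 0.13, without the CHIR99021-treated BCR-negative array of lymphoma 2676. A difference between the 2 effects of BCR loss was therefore not detected for any single subunit gene. The 3 SE of these estimates were 0.131, 0.109 and 0.0856, so the 3 lymphomas give little precision for it.

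The last comparison set BCR-negative cells with CHIR99021 against BCR-positive cells without it, which asks how far the treated cells still stood from the controls. No subunit gene was called with limma (0.0159% of all genes were called lower). At an unadjusted p under 0.05, 3 were lower (4.05% of all genes), Cox7a1 at -0.37 ± 0.0944 (adjusted p = 0.252), Ndufb3 at -0.18 and Ndufv1 at -0.24, and Cox7a2l was higher at 0.21. Cox7a1 was lower in each lymphoma, by 0.42, 0.28 and 0.42 on the log2 scale in 2564, 2646 and 2676. The estimate lay below 0 for 48 of 65 genes (46.7% of all genes). The median was -0.03, with 0.05, -0.00 and -0.11 in the 3 lymphomas, and it ranged from -0.08 to 0.03 with replicates left out, with 0.02 without lymphoma 2676 and -0.07 without lymphoma 2564.

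Other mitochondrial genes were read from lists that hold no subunit of complexes I to IV. Their calls were not followed through the alternative fits. Without lymphoma 2646, 0 of 18820 genes were called after BCR loss in untreated cultures or with CHIR99021 in BCR-negative cells. In the main fit 2.30% of all genes were called lower and 1.91% higher after BCR loss, and 1.91% higher with CHIR99021 in BCR-negative cells. After BCR loss in untreated cultures none of 17 ATP synthase genes was called, with a median of -0.16 and 16 of them below 0. Of 36 assembly factors of complexes I to IV, 7 fell and none rose, with a median of -0.21. Ndufaf7, a methyltransferase of complex I assembly, was at -0.41 ± 0.0550 (limma, adjusted p = 0.0112) and Ndufaf2, which acts late in complex I assembly, at -0.57 (adjusted p = 0.0189). The other 5 were Ndufaf4, Cox11, Cox18, Cox19 and Lrpprc, the last of which stabilises mitochondrial mRNAs. With CHIR99021 in BCR-negative cells Lrpprc rose by 0.35 and Ndufaf6 by 0.46, the only assembly factors called there.

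Of 14 citric acid cycle genes, 4 fell after BCR loss, Idh3a (-0.51 ± 0.0784; limma, adjusted p = 0.0170), Dld, Suclg1 and Fh1, and Idh3a and Dld rose with CHIR99021 in BCR-negative cells, by 0.52 and 0.24. Of 74 mitochondrial ribosomal protein genes, 14 fell and 1 rose after BCR loss (2.30% and 1.91% of all genes), with a median of -0.24. The lowest p was that of Mrpl32 (-0.48), and Mrpl37 was the gene that rose (0.61). With CHIR99021 in BCR-negative cells 10 rose (1.91% of all genes), Mrpl32 (0.44) among them, with a median of 0.18. Both comparisons share the untreated BCR-negative arrays, so opposite changes of a gene in them are not independent. Among 16 genes of mitochondrial biogenesis and DNA expression, Polg2, the accessory subunit of the mitochondrial DNA polymerase, went against the subunit genes. It rose by 0.63 ± 0.124 after BCR loss (limma, adjusted p = 0.0303). With CHIR99021 in BCR-negative cells Polg2 fell by 0.67 (1.76% of all genes were called lower there). In that comparison Esrra, a nuclear receptor that drives mitochondrial genes, rose by 0.39. With CHIR99021 in BCR-positive cells Esrra was at 0.52 (limma, adjusted p = 0.0768), so its higher value was not particular to the BCR-negative cells. Among 14 genes of the mobile carriers, Coq10a rose by 0.26 after BCR loss, and Coq5 rose by 0.36 with CHIR99021 in BCR-negative cells. Coq8a of coenzyme Q synthesis fell by 1.45 ± 0.178 with CHIR99021 in BCR-negative cells (limma, adjusted p = 0.00617). In BCR-positive cells Coq8a was at -0.82 with CHIR99021 (adjusted p = 0.134) and was not called.

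**Figure D5:**
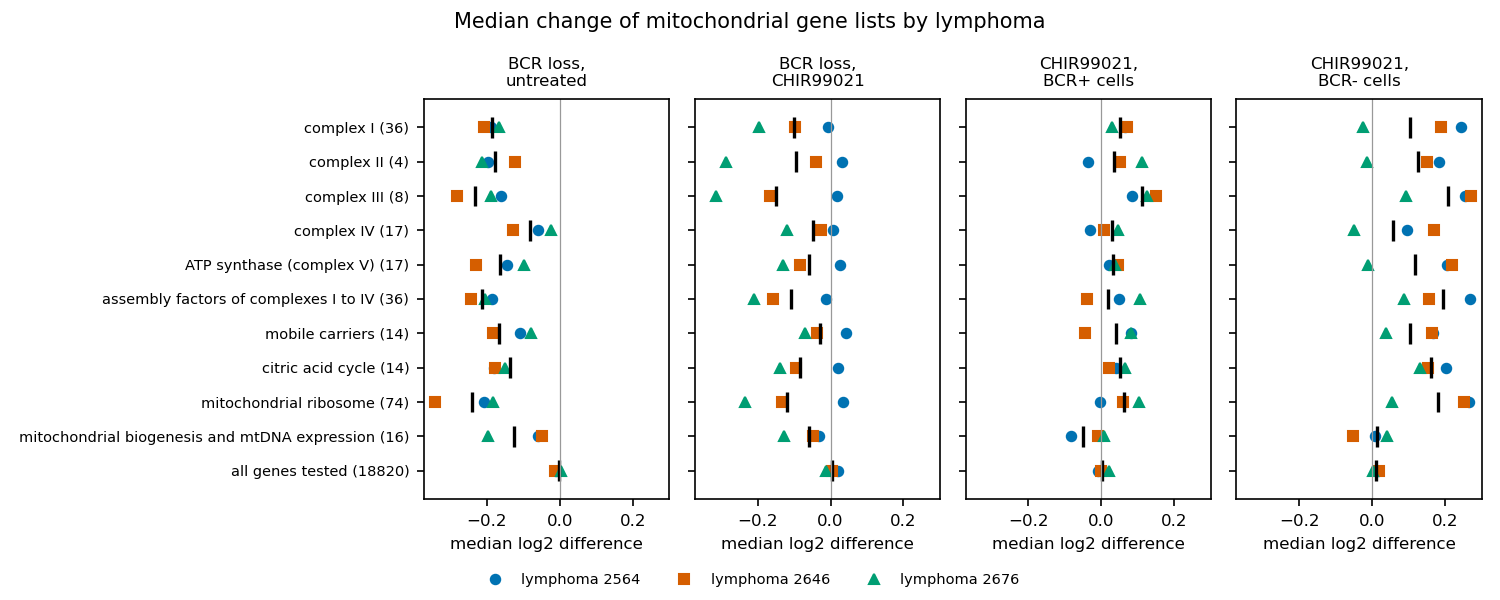
Median log2 difference (horizontal axis) over the genes of each list (vertical axis, number of genes in brackets) in 4 comparisons. Coloured symbols are the medians within each lymphoma and black bars the median of the fitted differences (n = 3 lymphomas). After BCR loss in untreated cultures the medians of the 4 complexes lie between -0.23 and -0.08 and that of all genes at -0.00.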

How the data were processed

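The deposited table holds log2 expression values per probe set, made by the authors with RMA (Power Tools of Affymetrix, version not stated, per the submitters' processing notes). Of 35556 probe sets, 21218 carried 1 gene symbol in the platform annotation, 1881 several, and 12457 were not listed. Each of 18820 genes was read from its probe set of highest mean over the 12 arrays. All 65 subunit genes matched the RefSeq annotation of GRCm38.p6 with the same symbol. Promoter sequences are RefSeq's. With arrays, their number limits the precision. No 2 arrays held identical values.

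All 12 arrays entered 1 linear fit of group plus lymphoma (as a block) in limma 3.58.1 in R 4.3.3, followed by eBayes, with 6 residual degrees of freedom. P-values were adjusted by Benjamini-Hochberg over the 18820 genes, and called means an adjusted p under 0.05. The labels and the design text give the pairing: arrays of a lymphoma deviated from the group means together (r of 0.813 to 0.907, 18 pairs). P-values rest on how much the group differences vary between these 3 lymphomas. Differences in level between the lymphomas are taken up by the block. The spread is pooled over the 4 groups and moderated across genes by eBayes. Lists were described by counts and medians only. The model was also run on simulated data with independent noise for each gene and array. Genes on real arrays can vary together, so that run cannot show the error rate for these data.

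The subunit genes and lists were chosen with earlier results of these data known. Genes named are, per comparison, all called ones, those with the smallest p up to 10, the 2 with the smallest p and the largest rise and fall of each complex, and 7 landmark subunits; a selection of these is printed. Levels of different probe sets were not ranked. Genes named for a single lymphoma, and the further probe sets, were picked after their values were seen. Alternatives were other blocks, fewer arrays, a filter on dim genes, mean probe sets, other scalings, eBayes with trend, and each lymphoma or array left out.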

Additional observations from a re-analysis of the deposited data

How the results depend on the processing

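For BCR loss in untreated cultures, the count of called subunit genes (5 as reported) was 0 without the lymphoma block (no pairing), with lymphoma as a random block, and with only the arrays compared; it was 1 with the co-culture as a finer block (Cox7a1), 2 with cyclic loess (Cox7a1 and Ndufb6) and 17 with array medians subtracted, all lower. Leaving out lymphomas or single arrays gave 0 to 11. The count over all genes moved too. It was 432 lower as reported, 267 with the finer block, 261 with cyclic loess and 1013 with array medians subtracted. Without lymphoma 2646 it was 0, and without the CHIR99021-treated BCR-negative array of lymphoma 2676 it was 583. With lymphomas or single arrays left out it ranged from 0 to 635. The median, -0.17 as reported, was -0.24 with array medians subtracted, -0.14 with cyclic loess and -0.21 to -0.15 with replicates left out. For CHIR99021 in BCR-negative cells, the count (1 as reported) was 0 without the lymphoma block, with a random block, with only the arrays compared and with cyclic loess, 4 without dim genes and with eBayes trend and robust fitting, 7 with array medians subtracted, and 0 to 10 with replicates left out, and the median was 0.07 to 0.19. Over all genes, the count called higher there was 360 as reported, 340 with eBayes trend and robust fitting and 836 with array medians subtracted. With replicates left out it was 0 to 471. Without dim genes 417 of 13174 were called higher. For CHIR99021 in BCR-positive cells the median was 0.0961 with array medians subtracted and 0.0367 to 0.0778 with replicates left out. In the other 4 comparisons no subunit gene was called under any alternative; the finer block applied only to differences within a co-culture. Without the CHIR99021-treated BCR-negative array of lymphoma 2676, the median of treated BCR-negative against untreated BCR-positive cells was 0.03. Subtracting array medians moved the median of all genes to -0.06 after BCR loss in untreated cultures and to 0.07 with CHIR99021 in BCR-negative cells. Of 129 named values, 25 changed sign under at least 1 alternative; all were within 0.22 of 0. The causes were not tested.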

Other observations

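The further probe sets of the subunit genes give a second reading of the same RNA. For 16 subunit genes, 17 probe sets besides the one used had a single symbol, and 16 of them had the same sign as the one used after BCR loss in untreated cultures. The exception was Ndufb11, an accessory subunit of complex I, at 0.05 against -0.02. Uqcr10 was at -0.42 and -0.41, Uqcr11 at -0.35 and -0.35, and Ndufab1 at -0.29 and -0.29 on the 2 probe sets. For CHIR99021 in BCR-negative cells 16 of 17 also had the same sign, and for CHIR99021 in BCR-positive cells, where the differences were small, 12 of 17. Probe sets of 1 gene share the arrays and are not replicates.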
